A study of Mus musculus with 6 samples.

Results

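The 7 inhibitory receptor genes described here encode the somatostatin receptors Sstr1, Sstr2, Sstr3 and Sstr5, the galanin receptor Galr1, the neuropeptide Y receptor Npy1r and the cannabinoid receptor Cnr1. They were named as a list with earlier results of these data known. Each probe set with 1 annotated gene symbol that belongs to the list was taken, which gave 12 probe sets for 7 of the 18193 genes measured. Each gene was represented by its probe set of highest mean level. Expression was measured in sorted intestinal cells of adult Swiss Webster mice, all of them CCK-EGFP transgenic, so that enhanced green fluorescent protein (EGFP) marks cells making the hormone cholecystokinin. 3 samples held cells sorted as CCK-EGFP positive, and 3 held GFP negative cells of the same intestine, called non-EGFP. The labels give neither the promoter construct, the intestinal segment, nor the number of mice behind a sample, and p-values therefore reflect only sample-to-sample spread, part of which may be technical.

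Somatostatin, galanin, neuropeptide Y and endocannabinoids act on cell surface receptors that couple to inhibitory G proteins of the Gi/o class. Such receptors lower cyclic AMP by restraining adenylyl cyclase, open G protein-gated potassium channels and reduce calcium entry, and in endocrine cells these actions reduce hormone release. Somatostatin from neighbouring D cells is a known brake on enteroendocrine secretion, and Cnr1, the CB1 receptor, is best known from neurons, where it reduces transmitter release.

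Promoter windows of 4 of the 7 genes were found in a RefSeq table of mouse build GRCm38.p6, each from 250 bases before to 50 bases after an annotated start. They are shown because these genes moved together between the groups, and capitals mark E-boxes (CANNTG), the core motif of basic helix-loop-helix factors such as Neurod1, and the cAMP response element TGACGTCA. Where a gene had several starts, the most upstream is printed. Sstr1, Sstr5 and Galr1 are named only.
Cnr1, chr4:33924014-33924313, plus strand: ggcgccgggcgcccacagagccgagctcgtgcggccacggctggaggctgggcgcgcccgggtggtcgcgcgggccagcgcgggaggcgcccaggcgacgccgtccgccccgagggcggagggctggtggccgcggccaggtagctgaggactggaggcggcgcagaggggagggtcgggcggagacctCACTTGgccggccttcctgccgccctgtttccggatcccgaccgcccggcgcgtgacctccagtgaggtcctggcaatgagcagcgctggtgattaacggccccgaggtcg
Npy1r, chr8:66697172-66697471, plus strand: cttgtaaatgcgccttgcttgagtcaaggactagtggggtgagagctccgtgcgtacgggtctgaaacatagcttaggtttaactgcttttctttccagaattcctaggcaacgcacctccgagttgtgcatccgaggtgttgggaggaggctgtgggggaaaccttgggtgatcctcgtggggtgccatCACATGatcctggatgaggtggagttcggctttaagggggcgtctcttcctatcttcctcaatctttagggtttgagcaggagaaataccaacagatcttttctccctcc
Sstr2, chr11:113619077-113619376, plus strand: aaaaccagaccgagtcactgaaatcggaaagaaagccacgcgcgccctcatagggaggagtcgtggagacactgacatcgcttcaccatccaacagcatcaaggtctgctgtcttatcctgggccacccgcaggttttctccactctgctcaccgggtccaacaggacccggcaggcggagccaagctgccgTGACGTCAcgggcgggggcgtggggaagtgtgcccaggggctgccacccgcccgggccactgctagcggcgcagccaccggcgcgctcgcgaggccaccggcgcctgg
Sstr3, chr15:78544296-78544595, minus strand: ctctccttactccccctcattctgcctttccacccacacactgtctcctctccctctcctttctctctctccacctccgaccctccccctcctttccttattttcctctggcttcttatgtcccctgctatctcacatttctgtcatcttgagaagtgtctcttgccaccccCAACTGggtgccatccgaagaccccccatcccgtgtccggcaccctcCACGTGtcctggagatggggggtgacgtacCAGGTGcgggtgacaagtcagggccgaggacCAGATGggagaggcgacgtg

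The printed Sstr3 window held 4 E-boxes, those of Cnr1 and Npy1r held 1 each, and that of Sstr2 held 0. An E-box was present in 72.3% of all 32851 promoter windows of the table, with both strands searched. The Sstr2 window held 1 cAMP response element, a motif found in 1.79% of all windows. It also held 2 GC boxes (GGGCGG) and that of Cnr1 held 5, against 35.7% of all windows with at least 1. The TATA box letters TATAAA, present in 13.6% of windows, were in none of the 4 printed. Motif content differed between starts of a gene. The Sstr3 window not printed held 0 E-boxes, and the Cnr1 windows not printed held 1 E-box and 0 GC boxes each. These matches describe letters in a window and say nothing of factor binding.

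All 7 receptor genes were higher in CCK-EGFP than in non-EGFP cells. By limma with Benjamini-Hochberg adjustment over 18193 genes and a threshold of 0.05, 14.0% of all genes were called higher and 10.2% lower (2540 and 1851 genes, or 2101 and 3604 with arrays centred on their medians, where all 7 were still higher). This fit, behind the p-values below unless stated, did not pair the samples. With replicate number as a block all 7 were still called, at limma adjusted p from 0.00243 to 0.0313. No array of one group overlapped the other for any of the 7, a separation with CCK-EGFP above that 21.8% of all genes showed. The median log2 difference of the 7 was 4.64, where 1 unit is a doubling, against -0.17 over all genes, and it was 4.25 with undetected means held at the background level defined below. The transcripts were read from pools of sorted cells, so more cells with a transcript and more transcript per cell cannot be told apart, and the receptors need not occur in the same cells.

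RMA, the method behind the deposited values, gives no detection call. A background level of 4.60 was therefore taken from the 95th percentile of 71 olfactory and vomeronasal receptor genes. On the CCK-EGFP arrays all 21 readings of the 7 genes lay above it. On the non-EGFP arrays 4 readings did, 3 of Sstr5 and 1 of Sstr2. In non-EGFP cells the chosen probe sets of 6 of the 7 genes had a mean below the level. Where a group mean fell below it, each array of that group below the level was raised to it. The resulting folds are lower bounds for the chosen probe set, and other probe sets of a gene can give less. Fitted log2 differences of these genes also depend on how low the undetected arrays read. Other probe sets of Sstr3 and Cnr1 were above the level on all 3 non-EGFP arrays.

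**Figure D1:**
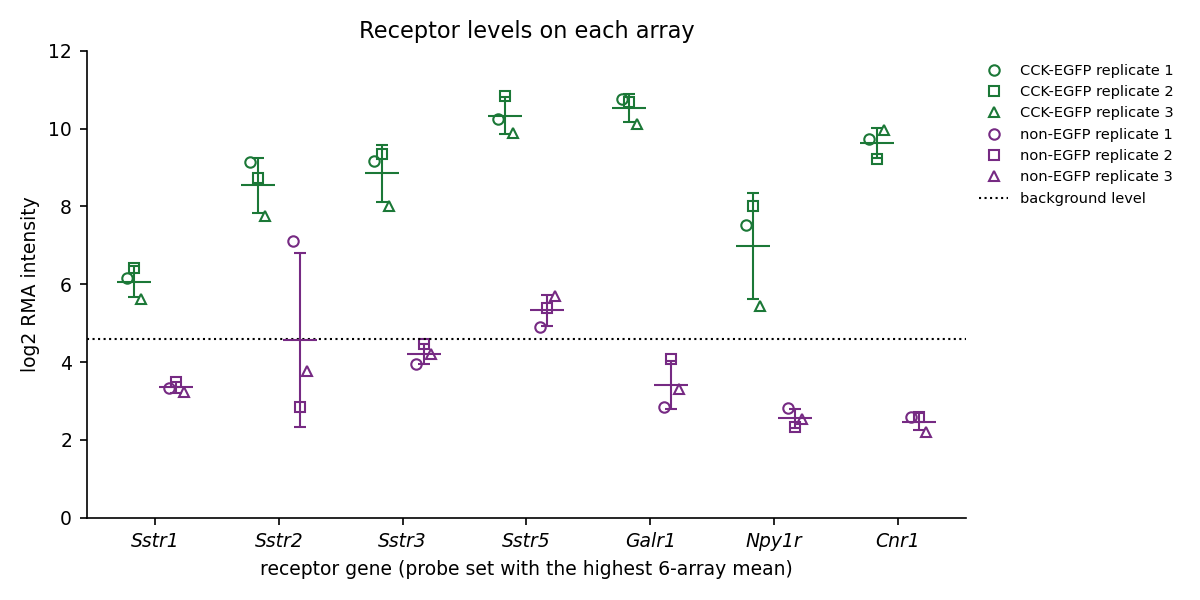
Log2 RMA intensity (y axis) of the 7 receptor genes (x axis) on each of the 6 arrays, with horizontal bars for group means, error bars for SD (n = 3) and a dotted line for the background level of 4.60. All CCK-EGFP points lie above the line, and the non-EGFP points lie below it except those of Sstr5 and 1 point of Sstr2 at 7.10.

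Among the chosen probe sets of the somatostatin receptors, only that of Sstr5 had both group means above the background level. It read 10.25, 10.84 and 9.90 in CCK-EGFP cells against 4.90, 5.38 and 5.71 in non-EGFP cells. The lowest CCK-EGFP array was 4.19 above the highest non-EGFP array. The means were 10.33 ± 0.48 (SD, n = 3) and 5.33 ± 0.41, a log2 difference of 5.001 (SE 0.33, limma adjusted p = 0.000349), or 32.0-fold. Sstr5 has 1 probe set on this array.

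Sstr3, a somatostatin receptor that localizes to primary cilia in many cell types, read 9.18, 9.36 and 8.01 in CCK-EGFP cells and 3.95, 4.47 and 4.20 in non-EGFP cells. All 3 non-EGFP arrays were below the background level. The increase on this probe set was at least 19.0-fold against that level, from a fitted log2 difference of 4.64 (SE 0.39, limma adjusted p = 0.000758). The second Sstr3 probe set, 1450577_at, did not share this difference: its means were 5.72 ± 0.29 and 5.97 ± 0.21 (log2 difference -0.25).

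Sstr2, the receptor targeted by most clinical somatostatin analogues, was the least even of the 7. It read 9.14, 8.73 and 7.76 in CCK-EGFP cells and 7.10, 2.86 and 3.76 in non-EGFP cells. Replicate 1 of the non-EGFP group thus stood 0.66 below the lowest CCK-EGFP array, while the other two non-EGFP arrays were below background. The mean difference of 3.97 (SE 1.07, or at least 8.65-fold with the dim arrays raised to the background level) passed the threshold narrowly (limma adjusted p = 0.0411), and leaving out any 1 array except non-EGFP replicate 1 ended the call, with differences of 3.11 to 4.36 and adjusted p up to 0.121. Without non-EGFP replicate 1 the difference was 5.24. On that array the summed level of 9 enteroendocrine markers was 12.50 on the log2 scale, against 12.45 and 12.42 on the other two, and its part in the Sstr2 reading was not tested.

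Sstr1, a further somatostatin receptor, had CCK-EGFP readings little above the background level. It read 6.17, 6.41 and 5.63 in CCK-EGFP cells and 3.33, 3.49 and 3.23 in non-EGFP cells. Both groups were tight, with SDs of 0.40 and 0.13. The fitted log2 difference of 2.72 (SE 0.25, limma adjusted p = 0.00107) gives an increase of at least 2.77-fold against background.

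Galr1, the galanin receptor, had the highest bound of the 7 genes. Its readings were 10.77, 10.68 and 10.11 in CCK-EGFP cells against 2.85, 4.08 and 3.30 in non-EGFP cells. The groups did not overlap. Since the non-EGFP arrays were all below background, the increase on this probe set was at least 60.6-fold, from a fitted log2 difference of 7.11 (SE 0.36, limma adjusted p = 0.000153). A second probe set, 1427704_a_at, was also higher, at 8.07 ± 0.58 against 3.90 ± 0.76 (log2 difference 4.17). The third, 1450568_at, was below background in both groups, at 3.22 ± 0.27 and 3.89 ± 0.10.

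Npy1r, the Y1 receptor for neuropeptide Y and peptide YY, varied most among the CCK-EGFP arrays. It read 7.51, 8.003 and 5.44 there and 2.81, 2.33 and 2.54 in non-EGFP cells. The CCK-EGFP array of replicate 3 was well below the other two but above the background level. The means were 6.98 ± 1.36 and 2.56 ± 0.24, with a log2 difference of 4.42 (SE 0.65, limma adjusted p = 0.00585) and an increase of at least 5.22-fold against background. The other Npy1r probe set, 1426054_at, stayed below background in both groups, at 2.997 ± 0.12 and 3.04 ± 0.21.

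The chosen Cnr1 probe set was below background on all 3 non-EGFP arrays. It read 9.73, 9.21 and 9.97 in CCK-EGFP cells and 2.60, 2.58 and 2.21 in non-EGFP cells. The CCK-EGFP arrays were all far above the background level and the groups did not overlap. The increase was at least 32.9-fold against background, a lower bound than for Galr1, from a fitted log2 difference of 7.17 (SE 0.26, limma adjusted p = 0.000104). Its second probe set, 1419425_at, read 5.82 ± 0.57 against 4.71 ± 0.06, a log2 difference of 1.12 that did not pass the test over probe sets (limma adjusted p = 0.0504).

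**Figure D2:**
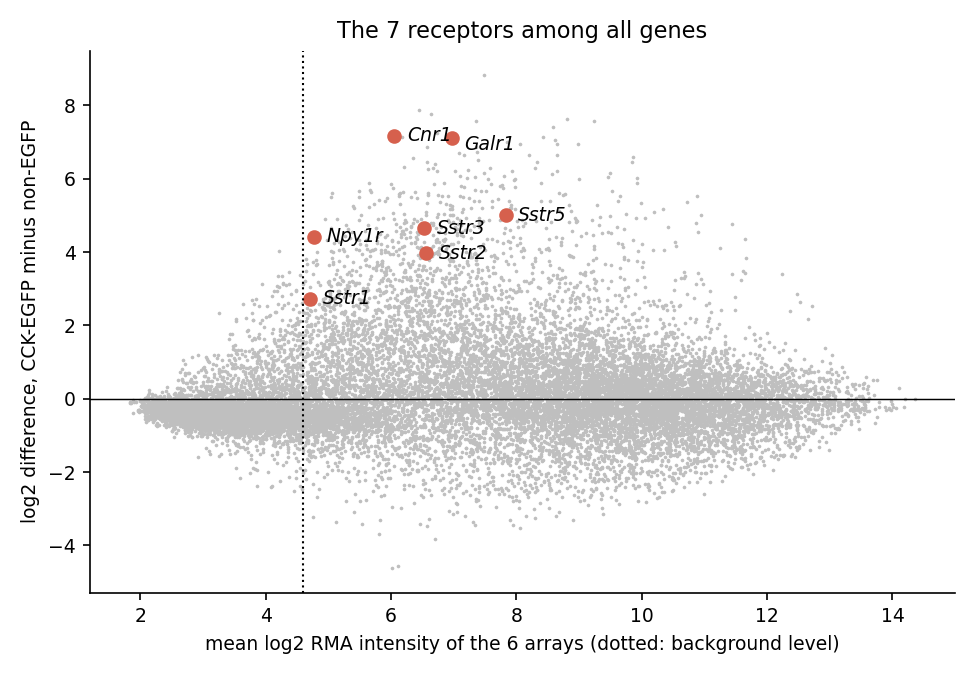
Log2 difference between CCK-EGFP and non-EGFP cells (y axis) against the mean log2 intensity of the 6 arrays (x axis) for 18193 genes in grey, with the 7 receptors in red and the background level of 4.60 dotted. All 7 receptors lie above 0, from Sstr1 at 2.72 to Cnr1 at 7.17, and 6 of them are plotted against non-EGFP means below background, where the fitted difference depends on the floor.

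Probe sets of the same gene did not always move together. Across the 12, 8 were called higher and 0 lower when each of 34945 probe sets was tested alone, where 10.4% of all were called higher. Of the 4 genes with several probe sets, Sstr3, Galr1, Npy1r and Cnr1, each had at least 1 that was not called. For Sstr3, Galr1 and Cnr1 the uncalled probe set is annotated to a RefSeq mRNA and the called ones to another GenBank record, and for Npy1r the order is the other way round. Averaging all probe sets of a gene left each difference past the threshold, at 2.20 for Sstr3, 3.54 for Galr1, 2.19 for Npy1r and 4.14 for Cnr1, all by limma.

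**Figure D3:**
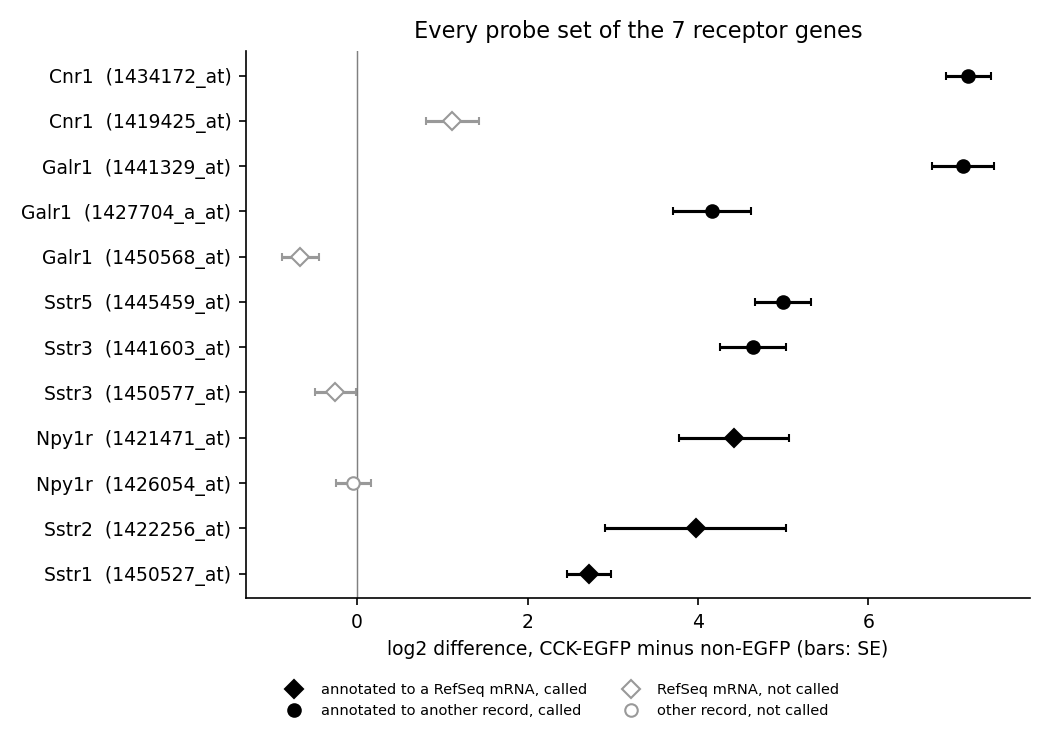
Log2 difference (x axis, bars are SE) of each of the 12 probe sets of the 7 receptor genes (y axis); filled symbols were called at a limma adjusted p under 0.05 over 34945 probe sets, and diamonds are annotated to a RefSeq mRNA. The called probe sets run from 2.72 to 7.17, and the 4 open symbols run from -0.67 to 1.12.

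For 6 of the 7 genes CCK-EGFP replicate 3 was the lowest of its group, Cnr1 being the exception. The same array was lowest for 61.9% of the 2540 genes called higher. Marker lists of other cells differed on it in both directions. The summed log2 level of 10 T and NK lymphocyte markers was 15.05, against 13.18 and 13.99 on the other two, and those of B cells (12.10), myeloid cells (10.74), glia (8.82) and enterocytes (16.64) were also highest there. The sums for enteric neurons (10.79), endothelium (7.43) and muscle and stroma (9.26) were lowest there. So was that of 9 enteroendocrine markers, at 15.83 against 16.08 and 16.01. Such sums follow the brightest genes of a list. Among glial markers Entpd2 (8.62) and Foxd3 were highest on that array, but Sox10, S100b and Gfap were lowest. Among muscle and stromal markers Ano1 (7.82), Acta2, Pdgfra and Col1a2 were lowest there, but Kit, Des, Col1a1, Col3a1 and Dcn were highest. The part of these cells in the receptor values was not tested. Without CCK-EGFP replicate 3 the differences were 2.94 for Sstr1, 5.06 for Sstr3, 5.22 for Sstr5, 7.32 for Galr1, 5.20 for Npy1r and 7.01 for Cnr1. All of these were still called by limma, while Sstr2 at 4.36 was not (adjusted p = 0.0644).

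Neurons, endothelium and lymphocytes of the gut wall are other known sites of these receptors, so their markers were read on the same arrays. Of 11 measured enteric neuron markers, 3 were higher in CCK-EGFP cells, namely Elavl3, Uchl1 and Ret. The summed log2 level of the list was 10.79 to 11.82 against 7.57 to 8.34. In CCK-EGFP cells that sum mostly followed Ret, which read 11.34, 10.75 and 10.08 there. The median log2 difference of the list was -0.02. Uncalled markers differed both ways, with Hand2 (-0.70), Elavl4 (-0.68) and Nos1 (-0.75) lower and Phox2a (0.79) and Chat (0.76) higher. Vip and Slc18a3 were below the background level on all 6 arrays, Prph was above it on all 6 (5.39 and 5.42 as group means), and Phox2a was above it on 2 CCK-EGFP arrays. Of 8 endothelial markers 1 was higher (Tie1, 6.06 ± 0.61 against 3.96 ± 0.56), with sums of 7.43 to 8.46 against 7.07 to 8.18, Cdh5 was below background on every array and Pecam1 above it on 5 of 6; without CCK-EGFP replicate 3 Vwf was called higher too (2.46, limma adjusted p = 0.00334). Of 10 T and NK lymphocyte markers 0 were called in either direction. Of 5 glial markers 1 was higher (Gfap, 4.69 ± 0.37 against 3.45 ± 0.14) and 1 lower (Entpd2). The Gfap call ended with averaged probe sets (0.37, limma adjusted p = 0.283) and in the test against 0.5. It also ended without CCK-EGFP replicate 1 or 2 (limma adjusted p = 0.0591 and 0.0655). Of 10 muscle and stromal markers 1 was higher (Ano1) and 1 lower (Des). In the fit blocked on replicate the Des call ended (limma adjusted p = 0.0596) and Kit was called higher (0.0449). The Ano1 call ended in 7 alternatives, among them omission of the first or second CCK-EGFP sample (adjusted p = 0.101 and 0.108). All 9 measured enteroendocrine markers were higher. For these marker counts too, the shares over all genes were 14.0% higher and 10.2% lower.

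Other receptors for the same ligands were mostly not detected. Of 8 measured, Sstr4, Galr2, Npy2r, Npy4r, Npy5r, Npy6r, Cnr2 and Gpr18, 0 were called higher and 0 lower, and 7 had both group means below the background level. Npy2r, a peptide YY receptor, stood at 2.31 ± 0.10 and 2.61 ± 0.39. Cnr2, the cannabinoid receptor of immune cells, stood at 3.59 ± 0.78 and 4.13 ± 0.25. Gpr18 was the exception, at 8.27 ± 1.04 and 8.97 ± 0.23 (limma adjusted p = 0.331). Galr2 read 4.81, 5.36 and 2.99 in CCK-EGFP cells against 3.78, 3.16 and 3.33, and without CCK-EGFP replicate 3 it was called higher by 1.66 (limma adjusted p = 0.0183). The median difference of the 8 was -0.42, and over all 4609 genes with both means below background it was -0.37. Galr3, Gpr55 and Gpr119 are not analysed here. Over all genes 14.0% were called higher and 10.2% lower. Members and lists were chosen with earlier results of these data known, so the calls of the members against those of these 8 genes are no independent contrast.

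The peptide ligands divided into hormones of the gut epithelium and neuropeptides. Of 7 measured, 2 were called higher and 0 lower, against 14.0% and 10.2% of all genes. Pyy, whose product peptide YY binds Npy1r, read 13.90, 13.70 and 13.86 in CCK-EGFP cells and 9.65, 9.23 and 9.52 in non-EGFP cells (log2 difference 4.35, limma adjusted p = 0.000105). Sst, which encodes somatostatin, was far above background in both groups, at 13.57 ± 0.27 and 11.17 ± 0.72 (log2 difference 2.40, limma adjusted p = 0.00782). Ppy stood at 6.01 ± 0.66 and 5.24 ± 0.14 and was not called. Gal, Npy, Cort and Spx, genes for galanin, neuropeptide Y, cortistatin and spexin, read 2.48 to 4.57 in CCK-EGFP cells, all below the background level, and none was called. The Gal means were 4.30 ± 0.28 and 4.96 ± 0.28.

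Enzymes that make and break down the lipid ligands of Cnr1 moved in both directions. Of 11 genes on the list, 3 were higher, 3 lower and 5 not past the threshold, where 14.0% of all genes were higher and 10.2% lower. The list also held Cnrip1, which encodes a receptor-interacting protein and no enzyme, and which was among the 5. Dagla, which makes the endocannabinoid 2-arachidonoylglycerol, read 8.52, 8.94 and 7.998 against 4.95, 4.94 and 4.27, a log2 difference of 3.77 (SE 0.32, limma adjusted p = 0.000816). Its paralogue Daglb did not pass, at 9.88 ± 0.04 and 9.90 ± 0.17. Mgll, the monoacylglycerol lipase that breaks the same lipid down, was higher by 4.95 (11.81 ± 0.74 against 6.86 ± 0.33, limma adjusted p = 0.000679), though its 4 probe sets ran from -0.10 to 5.06 and their average differed by 3.14. Napepld, an enzyme of anandamide synthesis, was higher by 1.32 (limma adjusted p = 0.0211), a call lost on omitting the first or second CCK-EGFP sample (adjusted p = 0.0739 and 0.0822).

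The lower genes were the hydrolases Abhd4, Abhd6 and Abhd12. Abhd6, which also cleaves 2-arachidonoylglycerol, read 9.74 ± 0.72 against 11.60 ± 0.15, a log2 difference of -1.86 (limma adjusted p = 0.0161). Abhd4 differed by -1.18 (limma adjusted p = 0.0103) and Abhd12 by -0.78 (0.0363). The call of Abhd6 ended without replicate 2 of either group (adjusted p up to 0.0614). That of Abhd12 ended without any array but non-EGFP replicate 3 (up to 0.115) and in the fit blocked on replicate (0.0513). Faah, which degrades anandamide, stood at 9.96 ± 0.25 and 10.66 ± 0.32 and was not called, although it was called lower with arrays centred on their medians (-0.96, limma adjusted p = 0.0269), with array weights and with probe sets averaged.

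The G proteins and potassium channels through which these receptors act included several of the higher genes. Of 9 measured, 5 were called higher and 0 lower, against 14.0% and 10.2% of all genes. Gnai1, a Gi alpha subunit, read 10.33, 10.17 and 10.54 in CCK-EGFP cells against 2.72, 3.42 and 3.20. On this probe set it was at least 53.7-fold higher by the background level (limma adjusted p = 0.000104). The log2 differences of its 3 probe sets ran from 2.99 to 7.23. Its paralogues did not pass: Gnai2 stood at 11.30 ± 0.27 and 11.00 ± 0.36, and Gnai3 at 10.52 ± 0.21 and 10.75 ± 0.05. Gnaz was higher by 4.87 and Gnao1 by 4.10 (limma adjusted p = 0.000623 and 0.00578). The channel subunits Kcnj3 and Kcnj5, which form a G protein-gated channel together, were at least 23.4-fold and 12.6-fold higher by the background level. Kcnj5 read 2.96, 2.79 and 6.09 on the non-EGFP arrays, 1 of them above that level. Kcnj6 and Kcnj9 stood at 3.53 ± 0.11 and 4.21 ± 0.28 in CCK-EGFP cells, below background. The probe sets of Gnao1 ranged from -0.53 to 4.10, those of Kcnj3 from 1.15 to 5.46 and those of Kcnj5 from 0.35 to 4.80, and averaging them gave 2.50 for Gnao1 and 2.57 for Kcnj5.

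Adenylyl cyclases, the enzymes that Gi subunits restrain, showed 2 genes higher, 1 lower and 7 not past the threshold. Among all genes 14.0% were called higher and 10.2% lower. Adcy2 was higher by at least 39.7-fold and Adcy8, a calcium-stimulated form, by at least 11.3-fold against the background level (limma adjusted p = 0.000417 and 0.0133). The Adcy8 call ended without CCK-EGFP replicate 1 (adjusted p = 0.0512). Adcy4 fell from 7.21 ± 0.12 in non-EGFP to 4.57 ± 0.54 in CCK-EGFP cells (limma adjusted p = 0.00227). Adcy6 (10.25 ± 0.06 and 10.37 ± 0.24) and Adcy7 (10.09 ± 1.19 and 10.45 ± 0.68) did not pass. Adcy1 read 6.65, 7.86 and 4.71 against 3.69, 4.44 and 3.36 and missed the threshold (limma adjusted p = 0.0556), but it was called in the fit blocked on replicate (0.0265) and without CCK-EGFP replicate 3 (0.00873).

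Receptor kinases and arrestins, which switch off such receptors after activation, gave 2 higher, 1 lower and 3 uncalled genes of 6. The shares over all genes were 14.0% higher and 10.2% lower. Grk3 was higher by 3.84 (10.21 ± 0.43 against 6.37 ± 0.42, limma adjusted p = 0.000737). Grk6 was higher by 0.95 (0.0231), a call lost when any single CCK-EGFP sample, or replicate 2 of the other group, was omitted (adjusted p up to 0.0888). Arrb1, beta-arrestin 1, was lower by a log2 difference of -1.23 (limma adjusted p = 0.0156), and that call ended without CCK-EGFP replicate 1 or 2 (up to 0.0676). Grk5 and Arrb2 were not called.

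Other receptors of the Gi/o class were mostly at background. Of 24 measured, 4 were higher, 1 lower and 19 not past the threshold, and 16 had both means below the background level. Among all genes 14.0% were called higher, a share near that of this list, and 10.2% lower. The higher ones were the adenosine receptor Adora3 (11.48 ± 0.48 against 6.19 ± 0.90, log2 difference 5.29), the glutamate receptor Grm4 (4.34), the prostaglandin receptor Ptger3 (4.16) and the GABA receptor subunit Gabbr1 (3.04), with limma adjusted p of at most 0.00109. The lower one was the serotonin receptor Htr1b (-0.84, limma adjusted p = 0.0442), whose call was lost on omitting any sample other than the first CCK-EGFP one (adjusted p reaching 0.137). The opioid receptors Oprm1, Oprd1, Oprk1 and Oprl1 had means of 2.57 to 3.74 in both groups. The probe sets of Adora3 ran from 0.58 to 5.29 and those of Gabbr1 from -0.22 to 3.46, while both of Ptger3 were at least 4.16. Averaged probe sets gave 2.94 for Adora3 and 1.79 for Gabbr1, both still called by limma.

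**Figure D4:**
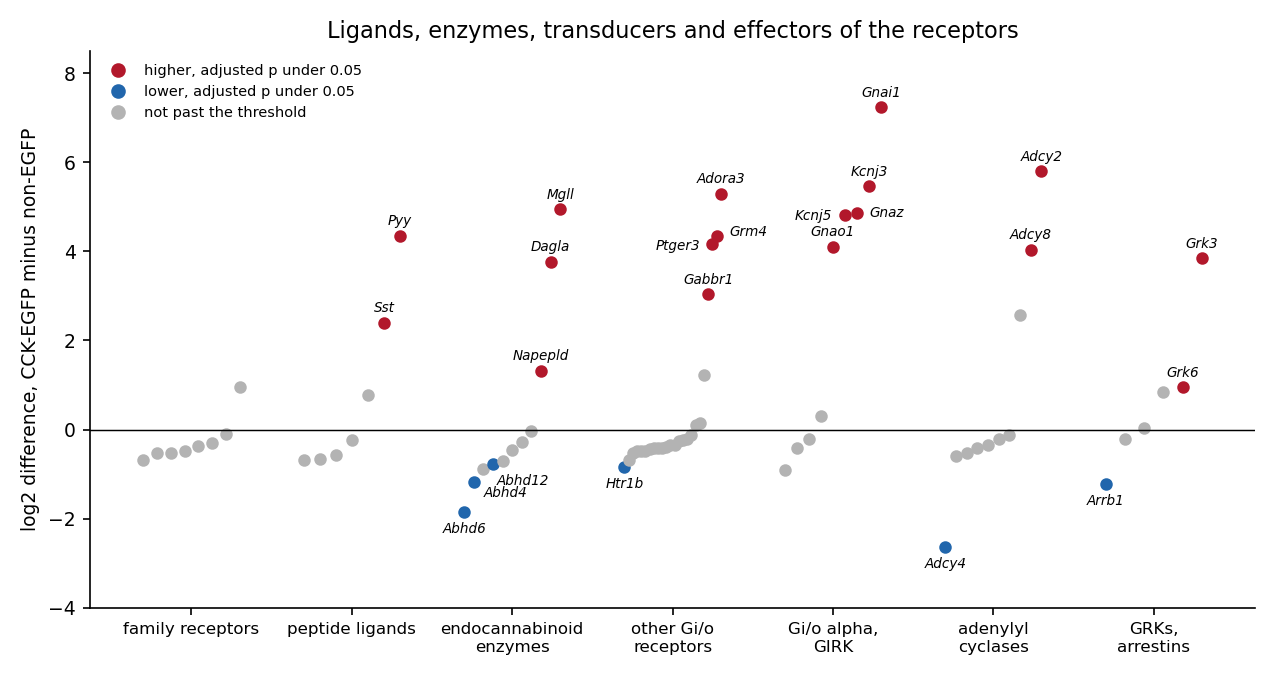
Log2 difference between CCK-EGFP and non-EGFP cells (y axis) for each measured gene of 7 lists around the receptors (x axis), with genes called higher in red, called lower in blue and others in grey (limma adjusted p under 0.05 over all genes). The list of Gi/o alpha subunits and GIRK potassium channels has 5 of 9 genes called higher, from 4.10 to 7.23, and the other receptors for the same ligands have 0 of 8. Over all genes 14.0% were called higher and 10.2% lower. The lists were chosen with earlier results of these data known.

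Genes with the most similar pattern over the 6 arrays were named by the root mean square difference of values after subtracting each gene's own mean, a description with 6 points that share the group difference. Nearest to Cnr1 were Gnai1 (0.30), the sodium-calcium exchanger Slc8a1 (0.31) and Steap1 (0.38). Nearest to Galr1 were Rflna (0.27), Gnai1 (0.36) and Pgc (0.36). Sstr5 was followed most closely by Lhx1 (0.14), Pla2g2f (0.17) and Tpst1 (0.24), and Sstr3 by Grm4 (0.19), Gsto2 (0.20) and Elavl3 (0.21). Sstr1 was nearest to Tspyl2 (0.15), Carmil3 (0.16) and Ghr (0.16). The nearest to Npy1r were Dach2 (0.24), Nebl (0.35) and Crmp1 (0.36), which also had their lowest CCK-EGFP reading on replicate 3. Sstr2 had no close match, with Tub (0.43), Dmpk (0.43) and Col27a1 (0.44) nearest, each of them highest among non-EGFP arrays on replicate 1. Such shared high or low arrays follow from choosing genes by closeness on these same arrays.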

How the data were processed

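Total RNA of 6 sorted samples was amplified from picogram amounts and hybridized to Affymetrix mouse arrays, per the labels' protocols. The authors deposited log2 intensities from RMA for 45101 probe sets, per the submitters' processing notes; the sources used here do not give its version or settings. Array medians were 5.66 to 5.72 in CCK-EGFP and 5.37 to 5.55 in non-EGFP cells. Of the probe sets, 34945 had 1 gene symbol in the platform annotation, 932 several, 64 were controls and 9160 are unnamed here.

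The 2 groups were tested gene by gene by limma (version 3.58.1, R 4.3.3), using eBayes after lmFit, with two-sided p-values adjusted by Benjamini-Hochberg over 18193 genes; 3 arrays per group limit precision. The fit was tested on simulated data. The members and gene lists were chosen with earlier results of these data known. Named were all members, the genes of the receptor, ligand and endocannabinoid lists in words or counts, up to 4 called and 2 uncalled genes of other lists, and 3 nearest genes per member. Adcy1, Kcnj6, Kcnj9, Vwf, Prph, Phox2a, Pecam1, Cdh5, Vip, Slc18a3, Des, Kit and the opioid receptors fall outside this rule and were named after their values were seen. The other uncalled neuron, glial, muscle and stromal markers were likewise named after their values were seen. Gnao1 and Htr1b also fall outside it, each having the smallest difference in a list with more than 4 called genes. Sets of replicate numbers were taken as pairs, since deviations from group means correlated across genes at 0.159 to 0.270 within each number; the main test has no block. Alternatives were a replicate block, filters on dim genes, trend and robust settings, array weights, median centring, a second quantile normalization, averaging probe sets, a test against 0.5 and leaving out each array. Tables and figures used Python 3.11.15 with numpy, pandas and matplotlib.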

Additional observations from a re-analysis of the deposited data

How the results depend on the processing

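Over 15 alternatives each, the log2 differences of Sstr1 (2.47 to 2.94), Sstr3 (2.20 to 5.06), Sstr5 (4.75 to 5.22), Galr1 (3.54 to 7.44), Npy1r (2.19 to 5.20) and Cnr1 (4.14 to 7.39) kept their direction and their call. Sstr2 lost its call in 7 of 15, at 3.86 (adjusted p = 0.0569) after a second quantile normalization, at 3.97 (0.077) when tested against 0.5, and at 3.11 to 4.36 without single arrays; over all single omissions it ran from 3.11 to 5.24. The replicate number as a block gave limma adjusted p from 0.00243 to 0.0313 for the 7 receptors, all still called. Of the other genes named, the block ended the calls of Abhd12 and Des and added those of Adcy1, Kit and Naaa. With the background level at the 90th percentile (4.07) the bounds rose to 87.4-fold for Galr1, 47.6-fold for Cnr1 and 4.01-fold for Sstr1, and with the highest mean (5.85) they were 25.4-fold, 13.8-fold and 1.17-fold, and 7.99-fold for Sstr3, 4.85-fold for Sstr2 and 2.19-fold for Npy1r; at that level Sstr5 too was undetected in non-EGFP cells, with a bound of 22.3-fold.

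Genes called in all numbered 4391 as deposited, 1974 when tested against 0.5, and 1870 to 4448 when single arrays were left out (2134 without CCK-EGFP replicate 1, 1870 without CCK-EGFP replicate 2, 2872 without non-EGFP replicate 2). With arrays centred on their medians, 2101 were higher and 3604 lower, against 2540 and 1851, and the median difference of all genes moved from -0.17 to -0.42. That centring added 1 lower call each among the family receptors (Npy4r), the peptide ligands (Gal) and the G protein and channel list (Kcnj9), gave 2 lower calls among other Gi/o receptors and left 1 higher receptor kinase. Kcnj9 also gave the 1 lower call of its list above the background level, without the genes of lowest mean and after the second quantile normalization; the first 2 test fewer genes. Trend and robust settings, averaged probe sets and the test against 0.5 left 0 lower Gi/o receptors. Averaged probe sets and the test against 0.5 left 1 higher receptor kinase, and the latter left 0 lower arrestins and 1 lower endocannabinoid enzyme. Leaving out single arrays gave 0 to 1 higher family receptors, 1 to 3 lower endocannabinoid enzymes, 0 to 1 lower Gi/o receptors, 0 to 1 lower channels, 1 to 3 higher cyclases, 1 to 2 higher kinases and 0 to 1 lower arrestins. Other causes were not tested. Signals near the background level limit what can be said of Sstr1 and of the dim family receptors.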
